A study of Quercus x morisii and Quercus suber and Quercus ilex with 16 samples.

Results

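The most abundant transcripts of oak outer bark were described across 4 kinds of bark. They are the 100 loci, of 47292 in the expression table, with the highest mean rlog over all 16 libraries, where rlog is the regularized log2 of the read count of a locus after scaling for depth. The level of a locus therefore chose it, and the levels and ranks given here are descriptions without a test. No difference between barks was used in the choice, and these differences were tested. A locus very high in only some barks could still enter through them. Counts of differences among the 100 are therefore not free of the choice. The rlog counts reads per locus and not per length of transcript, so a long transcript ranks higher than a short one with as many molecules, and ranks are compared for the same locus between barks.

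Cork was the outer bark of adult cork oaks (*Quercus suber*) that had never been stripped (n = 4 trees, numbered 87, 89, 90 and 91). Rhytidome was that of holm oaks (*Quercus ilex* spp. *rotundifolia*; n = 4 trees, 33, 67, 68 and 94). Rhytidome-like bark came from natural F1 hybrids of both species (n = 4 trees, 21, 14, 18 and 20), called the F1 trees here. Cork-like bark came from 1 natural hybrid tree, a backcross to cork oak, sampled facing north, south, east and west (cork-like 1, 2, 3 and 4). How trees of this kind vary is therefore not measured. Its tests use a spread pooled over all barks, to which this tree adds only the variation around its trunk. The other barks were sampled on the south side at breast height, while the phellogen was active, by scraping the inner face of the bark. Cork and cork-like bark are called cork-type, rhytidome and rhytidome-like bark rhytidome-type. By the study, rhytidome-type samples also held living secondary phloem. Differences between the bark types and in the tissue sampled therefore cannot be told apart. All reads were mapped to the cork oak genome, so a difference between species in the RNA and in how well reads map cannot be told apart.

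Outer bark is made by the phellogen, a sheet of dividing cells that lays down phellem, or cork, to the outside. Phellem cell walls are filled with suberin, a polyester of long-chain fatty acids, glycerol and ferulic acid that makes the tissue tight to water, and the cells then die. In cork oak a single long-lived phellogen builds a thick cork. In holm oak, successive thin periderms cut off dead phloem, and the layers together form a rhytidome.

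Names were known for 8 of the 100 loci, 5 from a list of bark genes of the study and 3 from Arabidopsis matches. They were *GELP51*, *GELP96* and *ASFT/FHT* of suberin deposition, 2 FRIGIDA-like loci, a tubulin alpha-4 chain, the vesicle-associated membrane protein VAMP726 and a member of the lactate/malate dehydrogenase family. Since the study selected those of its list on these same libraries, the direction of these 5 is not independent evidence. The other 92 are given by locus number, with no role.

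The values of the table were already scaled for depth, and the depth of each library is not in it. The median rlog over the 25617 loci tested ran from 7.27 to 7.73 between libraries. It was 7.45 to 7.49 in cork oak, 7.51 to 7.62 on the cork-like tree, 7.67 to 7.73 in holm oak and 7.27 to 7.37 in the F1 trees. Among the 100 loci, tree 20 was the highest rhytidome-like library at 75 and tree 21 the lowest at 59, so results that rest on this bark are also given without a tree where that changes them. The tissue was described by 13 loci of phellem markers (suberin enzymes and a transporter), 2 of them among the 100. They come from genes the study selected on these libraries, so their direction is not independent evidence. All 13 were higher in cork-type bark, with a median difference of 3.91 in log2. Other suberin-related loci of that selection, outside the marker list, had log2 fold changes of cork-type bark below 0, at -2.06 for *ABCG11*, -1.71 for *CYP94B1* and -1.25 for *CYP94B3* (limma adjusted p = 3e-05, 0.018 and 0.00018), of which *CYP94B1* did not pass. The summed share of the 13 phellem loci in the signal was 1.62% to 2.30% in cork oak, 0.866% to 1.08% on the cork-like tree, 0.219% to 0.392% in holm oak and 0.0172% to 0.0444% in the F1 trees. In such bulk samples, fewer phellem cells and less RNA per phellem cell cannot be told apart. The 3 markers of phellogen and cambium (*HB-8*, *WOX4* and *AIL6*), of the same selection, were also all higher in cork-type bark. Their median difference was 2.16. Their share was 0.0229% to 0.0355% in cork oak and 0.0303% to 0.0351% on the cork-like tree. It was 0.0141% to 0.0238% in holm oak, overlapping cork oak, and 0.00372% to 0.00585% in the F1 trees. *KNAT1* and *ARF6*, of the same selection but outside the marker list, went the other way. The study links both to root periderm in Arabidopsis. Their bark means rose from 12.39 and 13.12 in cork oak to 14.98 and 15.37 in the F1 trees. The part of these loci in the results was not tested. Markers of phloem and of green bark tissue had no names in the sources used here and were not examined.

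Across the 4 barks the 100 loci kept their place unevenly. Of them, 19 ranked among the first 100 of the table in every bark, and 13 did so in each of the 16 libraries. A further 34 were among the first 100 in 3 barks, 30 in 2, 15 in a single bark and 2 in no bark. At the other end, 16 ranked beyond 500 in at least 1 bark, and the remaining 65 lay in between. Of these 16, 10 dropped in rhytidome-like bark, 3 in cork oak, 3 on the cork-like tree and 0 in holm oak. Rhytidome thus held the most members among its own first 100 (74), followed by cork-like bark (65), rhytidome-like bark (62) and cork (52). The lowest rank of any member was 375 in holm oak, 689 on the cork-like tree, 1382 in cork oak and 3571 in the F1 trees. The first 100 loci of the 4 barks together made 209 loci, of which 98 were members.

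**Figure D1:**
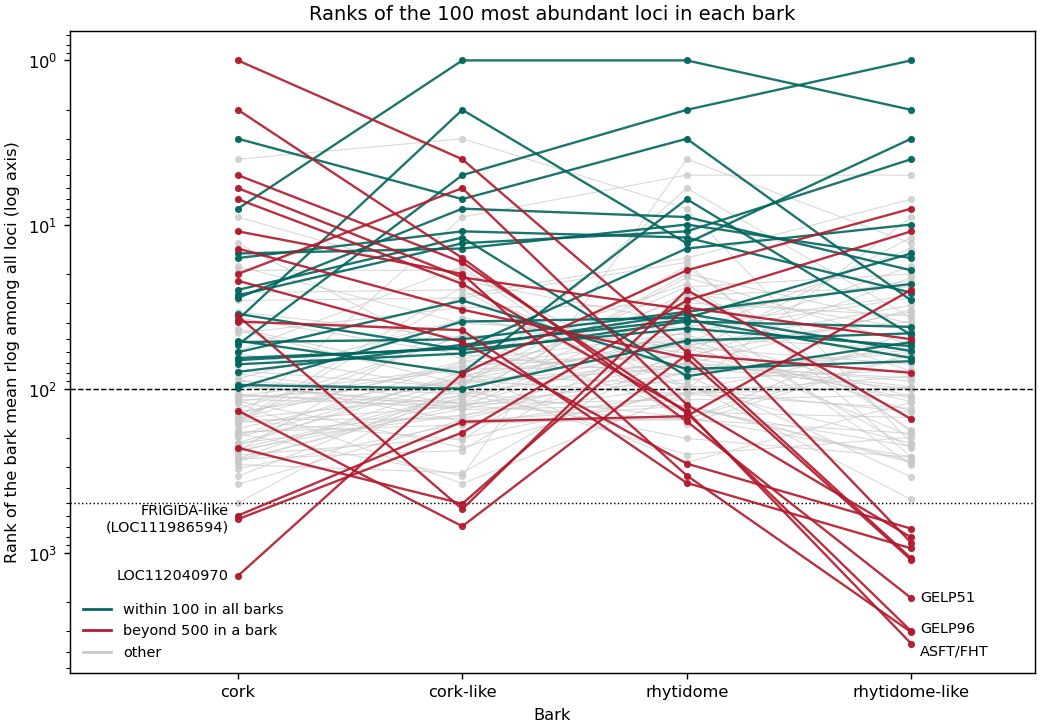
Rank of each of the 100 loci by its mean rlog in each bark (log axis, rank 1 at the top), with 1 line per locus. The 19 green lines stay above the dashed line at rank 100 in all 4 barks, and the 16 red lines fall below the dotted line at rank 500 in at least 1, most of them in rhytidome-like bark.

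The locus with the highest mean, LOC111992985, was at or near the top of every bark, with rank 8 in cork oak, 1 on the cork-like tree, 1 in holm oak and 2 in the F1 trees. It reached 17.09, 16.80, 17.13 and 16.67 in the cork trees and 18.90, 19.08, 18.57 and 18.49 in the cork-like samples. It stood at 17.76, 18.10, 18.64 and 19.01 in holm oak and at 18.60, 19.05, 18.96 and 20.05 in the F1 trees. All 4 cork libraries lay below the other 12, and cork was lower than rhytidome by a log2 fold change of -1.46 (SE 0.30, limma adjusted p = 0.00095). A high rank in all barks was therefore no sign of an equal level. The next locus, LOC112017922, ranked 1 in the F1 trees and 54 in cork oak. Its range was 15.22 to 15.86 in cork oak, 16.55 to 17.27 on the cork-like tree, 16.91 to 17.67 in holm oak and 19.15 to 19.71 in the F1 trees. Rhytidome-like bark lay above both parents here, by 3.95 in log2 over cork and 2.21 over rhytidome (SE 0.22 each).

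Among the 19 loci in the first 100 of every bark, 11 differed in at least 1 of the 6 pairs of barks (adjusted p under 0.01 and a difference above 1 in log2), against 54.2% of all loci tested. For the other 8 no pair passed. The steadiest of these was LOC112010426, whose bark means were 15.16 ± 0.47 in cork oak, 15.28 ± 0.33 on the cork-like tree, 14.96 ± 0.16 in holm oak and 15.38 ± 0.29 in the F1 trees (SD, n = 4). Its 4 bark means lay within 0.42, the smallest gap of all 100 loci. LOC112026056 was almost as steady, with a gap of 0.43 and ranks of 67, 56, 35 and 59 in cork oak, cork-like bark, rhytidome and rhytidome-like bark. LOC111995082 held the narrowest place near the top, with ranks of 15, 14, 10 and 16 in the same order. Its values were 16.35 to 16.62 in cork oak, 16.12 to 16.27 on the cork-like tree, 15.77 to 16.08 in holm oak and 16.16 to 17.28 in the F1 trees, where tree 20 gave the highest value. A pair of barks that did not pass is not shown to be alike. The standard error of a difference was 0.22 for LOC112010426 and 0.13 for LOC112026056.

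The suberin genes were the named members that changed rank most. *GELP51* (LOC112038078) and *GELP96* (LOC111989476) match GDSL-type esterase/lipases that assemble the suberin polymer in Arabidopsis roots, and *ASFT/FHT* (LOC112007140) matches the transferase that joins ferulic acid to suberin lipids in Arabidopsis and potato. *GELP51* ranked 2 in cork oak, 16 on the cork-like tree, 158 in holm oak and 1887 in the F1 trees. *ASFT/FHT* ranked 7, 23, 137 and 3571, and *GELP96* 11, 20, 338 and 3042, in the same order of barks. All 3 followed the same order of levels, cork above cork-like bark, then rhytidome, then rhytidome-like bark.

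For *GELP51*, the values were 17.14, 17.91, 17.54 and 17.54 in cork oak, and 16.39, 16.13, 15.94 and 16.19 on the cork-like tree. In rhytidome they were 14.33, 13.50, 13.53 and 14.06, and in rhytidome-like bark 10.67, 12.34, 12.27 and 12.31. The 4 barks did not overlap, and tree 21 lay well below the other F1 trees. *GELP51* passed in all 6 pairs of barks. It was higher in cork than in rhytidome by 3.68 (SE 0.32, limma adjusted p = 2.9e-07) and cork exceeded rhytidome-like bark by 5.64 (SE 0.32, adjusted p = 1.5e-09). Its difference of 1.37 between cork and cork-like bark (adjusted p = 0.0043) was lost without any of 6 libraries (cork 89, 90 or 91, cork-like 2, 3 or 4), at adjusted p of 0.01 to 0.016. With the 4 samples of the cork-like tree averaged to 1, this pair (adjusted p = 0.197) and cork-like bark against rhytidome (2.31, adjusted p = 0.0203) no longer passed. LOC112038093 and LOC112009101, at ranks 4554 and 8414, carry the name *GELP51* too. The bark means of LOC112038093 fell in the same order. Those of LOC112009101 did not, with 8.94 in cork-like bark and 9.02 in rhytidome. Only uniquely mapped reads were counted, so LOC112038078 may be undercounted where such loci are alike, which was not examined.

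For *ASFT/FHT*, the values were 16.53, 17.32, 17.07 and 16.84 in cork oak, and 16.06, 15.86, 15.56 and 15.96 on the cork-like tree. They fell to 14.36, 14.02, 13.53 and 13.92 in holm oak and 10.30, 11.04, 11.17 and 11.56 in the F1 trees. No library of a bark reached into the range of another. The gap of 5.92 between cork and rhytidome-like bark was the largest of all 100 loci (SE 0.24, limma adjusted p = 1.2e-10). Rhytidome-like bark was lower than rhytidome by a log2 fold change of -2.94 (SE 0.24, adjusted p = 5.8e-07). *ASFT/FHT* also passed in all 6 pairs, but the difference of 1.08 between cork and cork-like bark (adjusted p = 0.0036) was lost without cork 89 or 90 or cork-like 2 or 3, at 0.95 to 1.08 and an adjusted p of 0.011 to 0.015. Averaging the cork-like samples to 1 ended this call (adjusted p = 0.175) and that of cork-like bark against rhytidome (1.90, adjusted p = 0.0129). A second *ASFT/FHT* locus, LOC112001733, stood just outside the list at rank 102, and unique reads divide between such copies.

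*GELP96* read 16.57, 17.14, 16.76 and 16.63 in cork oak, and 16.20, 15.97, 15.98 and 16.03 on the cork-like tree. The values were 13.87, 12.50, 13.01 and 13.83 in holm oak and 10.12, 11.84, 11.71 and 11.34 in the F1 trees. The barks again did not overlap. It had the largest difference between cork-type and rhytidome-type bark of all 100 loci, 4.13 (SE 0.24, limma adjusted p = 1.9e-09), followed by 3.97 for *GELP51* and 3.91 for *ASFT/FHT* among the named loci. Between cork and cork-like bark the difference of 0.73 did not pass (SE 0.34, adjusted p = 0.11). The 2.74 between cork-like bark and rhytidome passed, but not with the cork-like samples averaged to 1 (adjusted p = 0.0135).

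**Figure D2:**
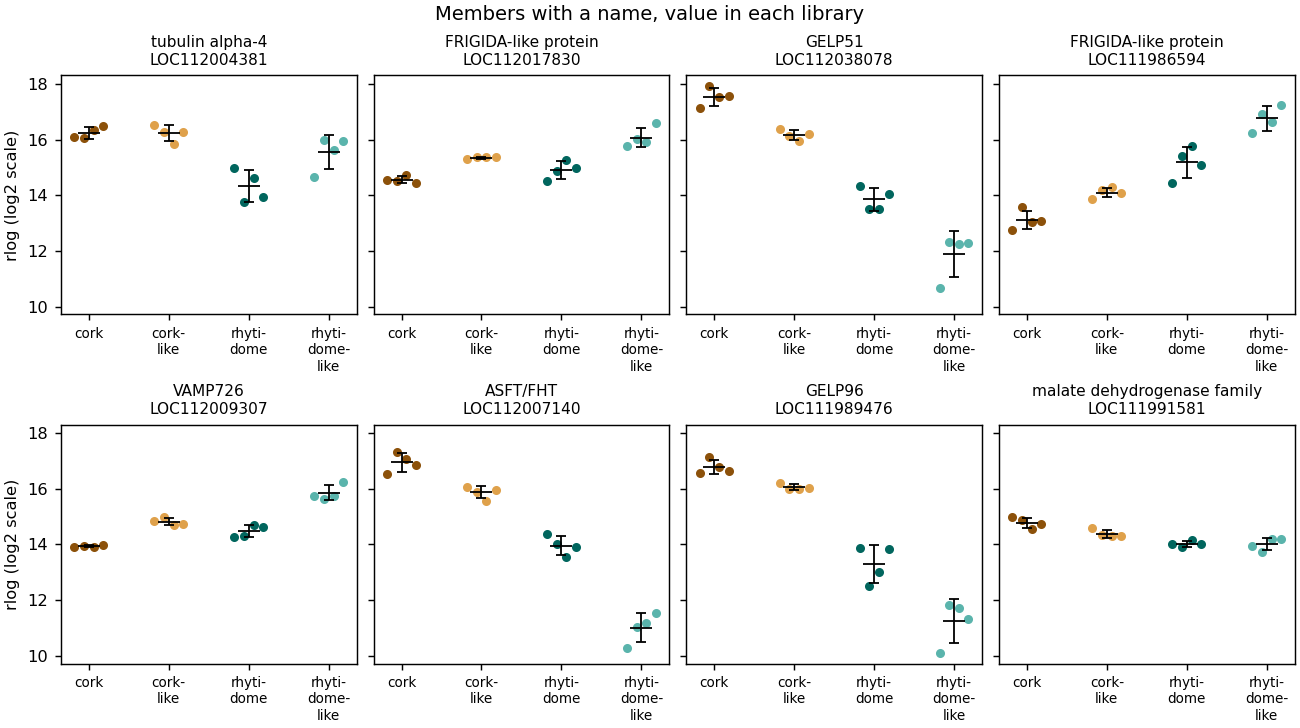
Value of the 8 named members in every library (rlog, log2 scale), with the bark mean and SD as a bar and whiskers (n = 4). *GELP51*, *GELP96* and *ASFT/FHT* step down from cork to rhytidome-like bark without overlap, the FRIGIDA-like locus LOC111986594 steps up, and the malate dehydrogenase locus stays between 13.73 and 14.97.

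Bark means fell in the same order at 2 of the unnamed loci with the largest differences. LOC112032981 ranked 1 in cork oak, 4 on the cork-like tree, 60 in holm oak and 1080 in the F1 trees. Its values were 17.29 to 18.05 in cork oak, 17.39 to 17.49 on the cork-like tree, 14.18 to 15.33 in holm oak and 11.53 to 12.94 in the F1 trees. Cork and cork-like bark overlapped, and both stood above the rhytidome-type barks by 3.94 (SE 0.22, limma adjusted p = 8.8e-10). LOC111993942 ranked 5, 17, 140 and 3000, with a difference of 4.06 between the bark types (SE 0.21, adjusted p = 6.3e-10).

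In the opposite direction, the FRIGIDA-like locus LOC111986594 moved from rank 624 in cork oak to 185 on the cork-like tree, 29 in holm oak and 11 in the F1 trees. FRIGIDA-like proteins form a plant family named after FRIGIDA, a regulator of flowering time in Arabidopsis. The values were 12.76, 13.57, 13.06 and 13.08 in cork oak, and 13.88, 14.18, 14.29 and 14.07 on the cork-like tree. They rose to 14.46, 15.42, 15.77 and 15.09 in holm oak and to 16.22, 16.92, 16.65 and 17.23 in the F1 trees. The barks did not overlap, and cork-type bark was lower by a log2 fold change of -2.36 (SE 0.18, limma adjusted p = 4.4e-08). The difference of -1.08 between cork-like bark and rhytidome (adjusted p = 0.0039) was lost without rhytidome 67 or 68 or cork-like 1 or 4, at an adjusted p of 0.011 to 0.015, and with the cork-like samples averaged to 1 (adjusted p = 0.155).

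The second FRIGIDA-like locus, LOC112017830, moved far less, with ranks of 133, 48, 42 and 27. Its values were 14.45 to 14.72 in cork oak, 15.29 to 15.39 on the cork-like tree, 14.51 to 15.25 in holm oak and 15.77 to 16.58 in the F1 trees. Here both hybrids lay above both parents, with no overlap between the 8 hybrid and 8 parent libraries. Of the 6 pairs, cork against rhytidome-like bark (-1.51, SE 0.17, limma adjusted p = 2.2e-06) and rhytidome-like bark against rhytidome (1.16, SE 0.17, adjusted p = 0.0001) passed. The latter fell just under the limit of 1, to 0.99, without rhytidome-like tree 20.

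The remaining named members belong to the general machinery of the cell. The tubulin alpha-4 chain (LOC112004381), a building block of microtubules, ranked 25 in cork oak, 12 on the cork-like tree, 84 in holm oak and 52 in the F1 trees. It read 16.10, 16.04, 16.35 and 16.47 in cork oak, and 16.53, 16.28, 15.83 and 16.28 on the cork-like tree, so both cork-type barks stood at the same height. Values were 14.98, 13.76, 14.64 and 13.95 in holm oak and 14.65, 15.99, 15.62 and 15.94 in the F1 trees. Cork was higher than rhytidome by 1.91 (SE 0.30, limma adjusted p = 8.5e-05), while the 0.69 between cork and rhytidome-like bark did not pass (SE 0.30, adjusted p = 0.065). Rhytidome-like bark was higher than rhytidome by 1.22 (adjusted p = 0.0049), a call lost at 1.03 to 1.19 and an adjusted p of 0.013 to 0.018 without rhytidome 67 or 94 or rhytidome-like 14, 18 or 20, and at an adjusted p of 0.013 with the cork-like samples averaged to 1.

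VAMP726 (LOC112009307), of a family of membrane proteins that fuse vesicles with their target membrane, ranked 267, 90, 71 and 33. It was tightly grouped, at 13.90 to 14.00 in cork oak, 14.69 to 14.98 on the cork-like tree, 14.28 to 14.71 in holm oak and 15.64 to 16.24 in the F1 trees. Rhytidome-like bark lay above the other 12 libraries and exceeded cork by 1.91 (the log2 fold change of cork was -1.91, SE 0.14, limma adjusted p = 2.5e-08). Its excess over cork-like bark passed with a fold change of -1.03, and it lay under the limit of 1 without cork-like 3 or rhytidome-like 20 (-0.99 to -0.90). The malate dehydrogenase locus LOC111991581, of a family of enzymes that interconvert malate and oxaloacetate, had the smallest gap between bark means of the named members, 0.76, with ranks of 108, 134, 126 and 276. It read 14.55 to 14.97 in cork oak, 14.30 to 14.60 on the cork-like tree, 13.90 to 14.15 in holm oak and 13.73 to 14.20 in the F1 trees. No pair passed the limit of 1, although cork exceeded rhytidome by 0.76 (SE 0.13, adjusted p = 0.0002).

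The 16 members that ranked beyond 500 in some bark each passed in at least 1 pair. LOC112040970, for which the table gives no protein, rose most in rank toward the rhytidome-type barks, from 1382 in cork oak to 81, 19 and 8. Its values were 12.37, 11.41, 12.42 and 13.32 in cork oak, and 14.75, 15.20, 15.02 and 14.88 on the cork-like tree. They were 14.67, 15.29, 15.93 and 15.90 in holm oak and 16.58, 17.37, 17.02 and 17.82 in the F1 trees. Cork lay below the other 12 libraries and below rhytidome-like bark by 4.82 (log2 fold change of cork -4.82, SE 0.36, limma adjusted p = 3e-08). LOC112021098 instead dropped in cork-like bark, with ranks of 36 in cork oak, 542 on the cork-like tree, 25 in holm oak and 153 in the F1 trees. Its 4 samples of that tree read 12.78 to 13.46, under all other libraries (14.11 to 16.32), and cork exceeded cork-like bark by 2.78 (SE 0.31, adjusted p = 1.3e-05). This call was lost with the cork-like samples averaged to 1 (adjusted p = 0.0125).

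Over the whole list, 74 loci passed in at least 1 of the 6 pairs, against 54.2% of all loci tested and 55.6% of the 900 loci next in rank. *GELP51* and *ASFT/FHT* passed in all 6, and 26 loci in none. Averaging the cork-like samples to 1 left both with 4 of the 6. The pairs share bark groups, so their counts are not independent of each other. Cork against rhytidome-like bark gave the most calls, 59 (31.7% of all loci tested), of which 25 were higher in cork (16.3% of all loci) and 34 lower (15.4%). Cork-like against rhytidome-like bark gave 52 (27.3%), 18 higher in cork-like bark (15.5%) and 34 lower (11.7%). Rhytidome-like bark against rhytidome gave 43 (17.7%), 32 higher in rhytidome-like bark (5.64%) and 11 lower (12%). Without rhytidome-like tree 20 these were 36, with 24 higher and 12 lower.

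Cork against rhytidome gave 37 calls (29.6% of all loci tested), 26 higher in cork (11.9%) and 11 lower (17.7%). Cork-like bark against rhytidome gave 29 (21.5%), 20 higher in cork-like bark (9.63%) and 9 lower (11.9%). Cork against cork-like bark gave the fewest, 17 (13.9%), 7 higher in cork (5.39%) and 10 lower (8.46%). The loci higher in cork were 3 without cork 89 and 4 without cork-like 2. With the 4 samples of the cork-like tree averaged to 1, 1 of these 17 was left. The median difference of the 100 loci was 0.27 for cork against rhytidome, beside -0.16 over all loci tested. It was 0.61 beside -0.14 for rhytidome-like bark against rhytidome, and -0.46 beside -0.14 for cork against rhytidome-like bark. In the 900 loci next in rank these medians were 0.21, 0.33 and -0.12. Among those 900, 155 were called higher and 58 lower in cork against rhytidome. For rhytidome-like bark against rhytidome, 147 were higher and 82 lower. The lean of these pairs was thus shared by other abundant loci.

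**Figure D3:**
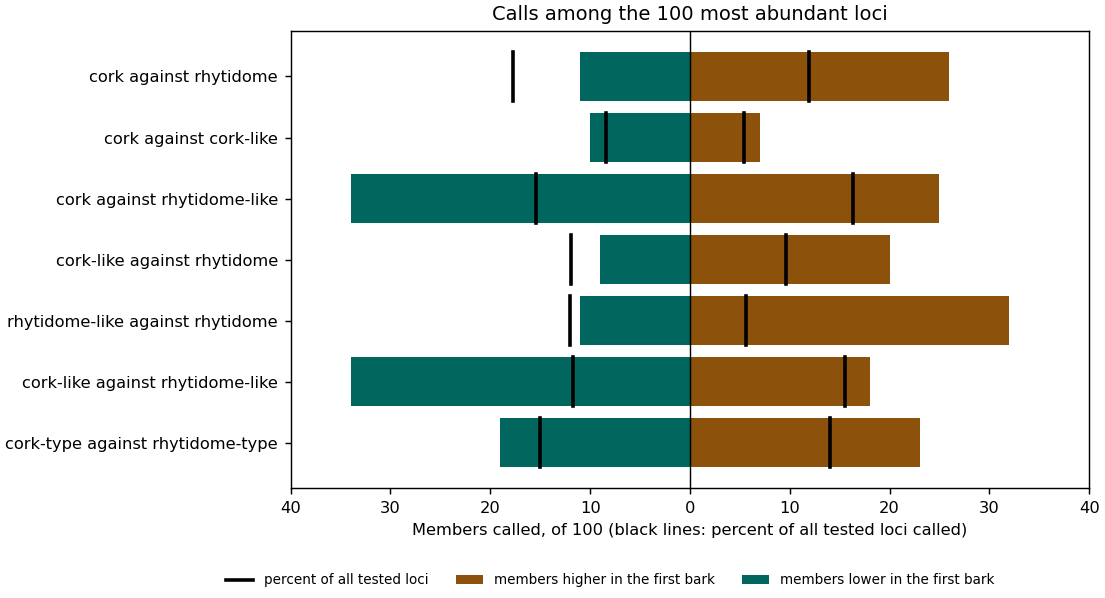
Number of the 100 loci higher (brown, right) and lower (green, left) in the first bark of each comparison at an adjusted p under 0.01 and a log2 fold change above 1, with the percent of all tested loci called in that direction as a black line. Brown exceeds its line most for rhytidome-like bark against rhytidome (32 loci against 5.64%), where 147 of the 900 loci next in rank were also higher.

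The direction of these counts depended on how the libraries were scaled, except for cork against rhytidome-like bark. Quantile normalization gives every library the same set of values, which makes the most abundant loci as high in each by construction. After it, cork against rhytidome had 16 loci higher and 30 lower in cork, and rhytidome-like bark against rhytidome 6 higher and 20 lower in rhytidome-like bark. Cork-like bark against rhytidome had 17 higher and 18 lower, cork-like against rhytidome-like bark 24 higher and 20 lower, and cork against cork-like bark 3 higher and 14 lower. Centring each library on its median moved the median of all loci by up to 0.37 in a pair of barks. It gave 13 higher and 9 lower in cork against cork-like bark, and 43 higher and 8 lower in rhytidome-like bark against rhytidome. Cork against rhytidome-like bark kept more loci lower than higher in cork. That pair had 25 higher and 32 lower after quantile normalization, and 24 and 38 after centring. Of the calls at the 41 members singled out by rule or by name, 0 changed sign in any alternative run.

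Between the bark types, 42 loci passed (29.1% of all loci tested), 23 higher in cork-type bark (14%) and 19 in rhytidome-type bark (15%). All 8 cork-type libraries lay above all 8 rhytidome-type libraries at 20 loci (7.04% of all loci), and below them at 9 (6.63%). The remaining 71 overlapped. The suberin members and LOC112032981 and LOC111993942 led the former, and the FRIGIDA-like LOC111986594 the latter.

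**Figure D4:**
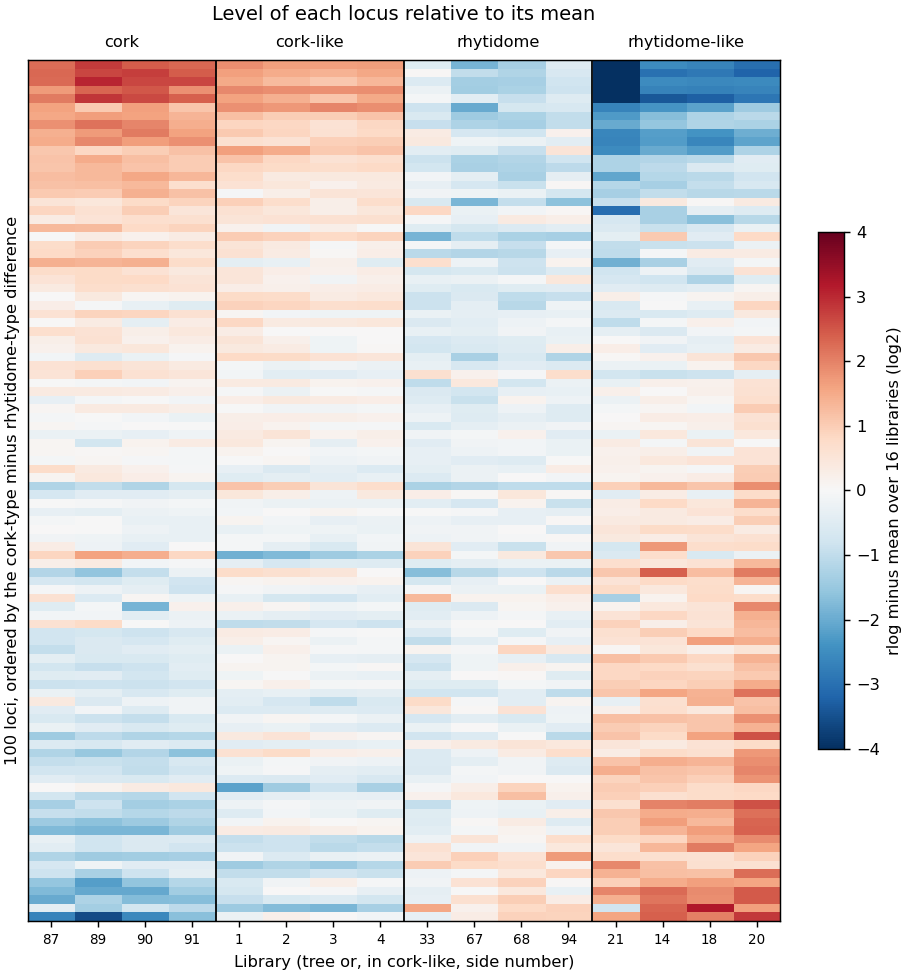
Level of each of the 100 loci in every library relative to its own mean over the 16 (log2 scale, colours cut at 4 on either side), with loci ordered by the difference between cork-type and rhytidome-type bark. Most of the top rows grade from cork to rhytidome-like bark. The bottom rows lie higher in rhytidome-type bark but differ in the order of the barks, some being lowest in cork-like bark. Rhytidome-like tree 20 is the reddest column over much of the lower part.

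When a single bark stood apart, it was mostly rhytidome-like bark or cork, as in the 900 loci next in rank. The 4 rhytidome-like libraries lay above the other 12 at 33 loci (6.37% of all loci tested, 23.2% of the next 900) and below them at 12 (7.51%, 11.2%). The 4 cork libraries lay above the rest at 18 (8.2%, 15.6%) and below at 16 (7.64%, 8.78%). Cork-like bark was above at 2 (4.25%, 3.33%) and below at 6 (2.98%, 4.11%). Rhytidome was above at 0 (4.17%, 0.556%) and below at 6 (2.8%, 5.56%). Bark means fell in the order cork, cork-like bark, rhytidome and rhytidome-like bark at 17 loci (9.15%, 14.6%), the 3 suberin members among them. They rose in that order at 10 (8.64%, 12.7%). Apart from rhytidome-like bark above and cork below, these counts were near the shares of the next 900.

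The hybrids lay outside both parents at a few of the most abundant loci. All 8 hybrid libraries were above all 8 parent libraries at 7 loci (0.995% of all loci tested, 4.11% of the next 900) and below them at 1 (0.999%). The clearest was LOC111988468, with rank 3 by mean level. It read 15.69, 15.92, 15.71 and 16.21 in cork oak and 15.66, 15.74, 15.91 and 15.89 in holm oak. The hybrids read 18.05, 17.88, 17.41 and 17.62 on the cork-like tree and 17.86, 18.20, 18.00 and 18.78 in the F1 trees. The parents differed by 0.08 (SE 0.20, limma adjusted p = 0.74), while cork-like bark exceeded rhytidome by 1.94 (adjusted p = 3e-06) and rhytidome-like bark exceeded it by 2.41 (adjusted p = 5.5e-07). LOC112008430, with the largest rise from rhytidome to rhytidome-like bark (2.88, SE 0.32, adjusted p = 8.3e-06), was another of the 7. LOC112010719, named here after its values were seen, was the locus below both parents, at 14.21 to 15.00 in the hybrids and 15.05 to 16.04 in the parents.

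Whether the difference between cork-type and rhytidome-type bark was the same in parents and hybrids was tested as the parent difference minus the hybrid difference. It passed at 28 loci (18.7% of all loci tested), with 20 positive (6.44%) and 8 negative (12.3%). Of the 900 loci next in rank 213 passed (23.7%), 159 positive and 54 negative, so the lean was shared by other abundant loci. Quantile normalization turned the split of the 100 loci to 1 and 25, and centring on the median gave 42 and 2. For *ASFT/FHT* the gap between cork-type and rhytidome-type bark was 2.98 in the parents and 4.84 in the hybrids, a difference of -1.86 (SE 0.34, limma adjusted p = 0.00088), which did not pass with the cork-like samples averaged to 1 (adjusted p = 0.032). Over the 100 loci, 3 calls were left by this averaging, all positive. For *GELP51* the corresponding value, -0.59, did not pass (SE 0.45, adjusted p = 0.32), nor did the -1.31 of *GELP96* (SE 0.48, adjusted p = 0.044).

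Within a bark, the trees differed most in rhytidome-like bark and rhytidome. The median SD of the 100 loci was 0.41 in the F1 trees, 0.35 in holm oak, 0.18 in cork oak and 0.15 among the samples of the cork-like tree. Over all loci tested the order was the same, at 0.48, 0.43, 0.32 and 0.22, so it is not particular to the 100. The widest spread was at LOC111996007, which ranked 4 in holm oak and 13 in the F1 trees. It read 14.36, 17.48, 18.33 and 16.78 in rhytidome-like trees 21, 14, 18 and 20 (SD 1.70), 15.31 to 16.69 in holm oak, 13.78 to 14.74 in cork oak and 13.30 to 13.82 on the cork-like tree. Rhytidome-like tree 21 was thus below all 4 rhytidome trees and within the range of cork. The fold change of cork-like bark against rhytidome, -2.45 (SE 0.59, limma adjusted p = 0.0037), was lost without rhytidome 33 or cork-like 2 or 3 (adjusted p of 0.011 to 0.013) and with the cork-like samples averaged to 1 (adjusted p = 0.16).

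Together the 100 loci held 13.7% ± 0.20 of the summed signal (the sum of 2 to the power of rlog over all loci) in cork and 15.2% ± 0.66 on the cork-like tree. They held 12.6% ± 0.60 in holm oak and 18.5% ± 2.18 in the F1 trees (SD, n = 4). Tree 20 gave the highest rhytidome-like share, 21.2%, and tree 21 the lowest, 15.9%, which still exceeded every other library. After quantile normalization the shares of rhytidome and rhytidome-like bark were 15.6% and 14.4%, so their order depended on the scaling. The 3 suberin members alone held 1.23% ± 0.22 in cork oak, 0.627% ± 0.055 on the cork-like tree, 0.150% ± 0.043 in holm oak and 0.0246% ± 0.0086 in the F1 trees. The locus ranked first in a library held 0.479% to 0.751% of its signal in cork oak, against 0.812% to 2.48% over the other barks. In cork it was *GELP51* in trees 89 and 91, LOC112032981 in tree 90 and LOC112031941 in tree 87. In all rhytidome and cork-like libraries it was LOC111992985.

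**Figure D5:**
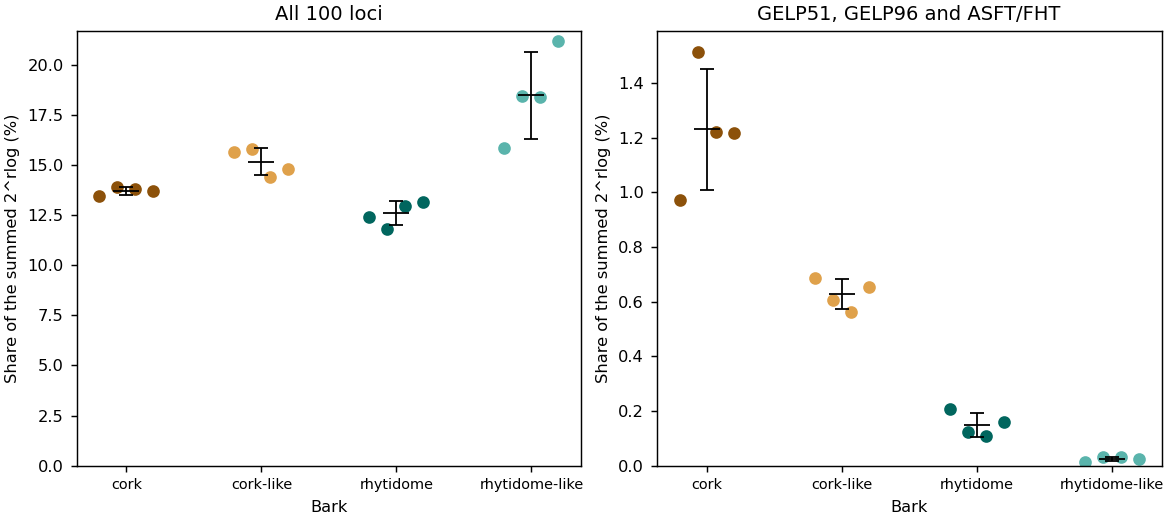
Share of the summed signal (2 to the power of rlog, in %) held by all 100 loci (left) and by *GELP51*, *GELP96* and *ASFT/FHT* (right), with 1 point per library and the mean and SD of each bark (n = 4). The left shares are lowest in rhytidome and highest in rhytidome-like bark, and the right shares fall in 4 steps from cork to rhytidome-like bark.

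At the edge of the list the levels were close. The last members, the malate dehydrogenase locus and LOC111988996, had means of 14.298 and 14.296, and the first loci outside, *ARF6* (LOC112032136) and the second *ASFT/FHT* locus, had 14.293 each. Chosen by the median over the libraries, 91 of the same loci were found, and by the mean on the linear scale 83.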

How the data were processed

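Outer bark RNA was sequenced as 16 libraries, grouped here by their titles. By the submitters' processing notes and the study's methods, the authors used Trimmomatic 0.40 for trimming, GSNAP for mapping to CorkOak1.0, keeping unique concordant pairs, Cufflinks 2.2.1 and HTSeq 0.11.1 for counts per locus, and DESeq2 1.38.3. No source used here states the strand setting. The deposited values are regularized log2 (rlog) counts of 47292 loci, scaled for depth by the authors. They do not give back the depth, so no counting error is given.

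Ranks were computed from bark means over all loci. Differences (first minus second bark) were fitted with limma 3.58.1 in R 4.3.3, with a mean per bark, a pooled spread and a variance trend. The fit covered 25617 loci whose mean rlog was 1 or more, all 100 members included. Benjamini-Hochberg adjustment was over all loci within each comparison. Calls needed both an adjusted p under 0.01 and a difference above 1 in log2. The fit was first tested on simulated data. Summaries used Python 3.11.15, numpy 2.4.6, pandas 2.3.3 and matplotlib 3.10.9.

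The rule named the 12 highest loci by mean, the 6 with the smallest gap between bark means, the 6 highest and 6 lowest differences between bark types without overlap, the 6 with the largest range of ranks, the highest and lowest call of each pair of barks and the 4 with the largest SD within a bark. Another 4 loci outside it (tubulin, VAMP726, malate dehydrogenase and the FRIGIDA-like LOC112017830) were added because the sources name them, after their values were seen. Of these 41 loci a selection is described. The members and lists were chosen with earlier results of these data known. Gene lists by function were not used, for want of names at 92 members. Alternatives changed the test, filter, scaling, choice of members, rank limits and samples. Counting calls among members chosen by the median or by the linear mean was added after seeing the data.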

Additional observations from a re-analysis of the deposited data

Results flagged for a closer look

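Single libraries that stood off from the other 3 of their bark were looked for at the 41 loci singled out by rule or by name, and 8 of 164 groups had one. Chance flags about 1 in 20 such groups. In rhytidome-like tree 20, LOC111995082 read 17.28, where the other F1 trees read 16.16 to 16.35. In rhytidome-like tree 21, *GELP51* (LOC112038078) read 10.67 against 12.27 to 12.34, and LOC112032981 read 11.53 against 12.88 to 12.94. Both loci fell in that tree together with *GELP96* and *ASFT/FHT*, whose values there (10.12 and 10.30) were also the lowest of their bark. In cork oak 91, LOC111989408 read 14.70 against 14.30 to 14.36, and LOC112026056 read 15.17 against 15.32 to 15.34. In holm oak 33, LOC112035407 read 16.82 against 15.65 to 15.77, and in holm oak 67, LOC112003066 read 13.05 against 14.25 to 14.43. In cork-like sample 1, the malate dehydrogenase locus LOC111991581 read 14.60 against 14.30 to 14.32.

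At 11 of the 41 named loci the difference between cork-type and rhytidome-type bark was not the same in parents and hybrids (limma, adjusted p under 0.01 and a difference above 1). The share was 18.7% of all loci tested and 23.7% of the 900 next in rank. Many of the 41 were picked for large differences between barks, so their count is a description only. The gap was wider toward cork-type bark in the hybrids at 5 of them. The parent difference minus the hybrid difference was -1.99 at LOC112031941, -1.86 at *ASFT/FHT* (LOC112007140), -1.85 at LOC112032981, -1.64 at LOC111993942 and -1.61 at LOC112003066. A negative value of -1.26 at LOC112031912 reflects a gap of -2.28 in the parents and -1.02 in the hybrids. Positive values were 2.25 at LOC112038967, 2.03 at LOC112021098, 1.46 at LOC111984642, 1.39 at LOC112000363 and 1.32 at LOC112025577. The largest of these, LOC112038967, had a gap of 0.32 in the parents and of -1.93 in the hybrids (adjusted p = 2.9e-05), with 17.69 to 18.77 in the F1 trees and 15.56 to 16.33 in the 12 other libraries. At LOC112021098 the gap was 0.61 in the parents and -1.42 in the hybrids. With the 4 samples of the cork-like tree averaged to 1, LOC112038967 kept the call and the other 10 lost it (adjusted p of 0.032 to 0.11). Leaving out a single library ended the call of LOC112003066 for any of 13 libraries, of LOC111984642 for 12, of LOC111993942 for 11 and of LOC112000363 for 6, at adjusted p of 0.01 to 0.018. After quantile normalization 1 positive call was left among all 100 loci, and the call of LOC112038967 was not kept.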

How the results depend on the processing

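The 157 calls at the 41 named loci were tested again under the alternatives, and 3595 of these tests kept the call, 297 lost it and 0 turned its sign. Several alternatives change only the test or the filter, so the sign could not turn there. Testing for a fold change above 1 itself (treat) left 16 members for cork against rhytidome, 1 for cork against cork-like bark, 11 for cork-like bark against rhytidome, 12 for rhytidome-like bark against rhytidome, 27 for cork-like against rhytidome-like bark, 22 between the bark types and 1 for the parent minus hybrid difference. With the cork-like samples averaged to 1, the comparisons with that tree gave 1 (cork), 9 (rhytidome) and 33 (rhytidome-like bark), and the parent minus hybrid difference 3. Quantile normalization gave 26 for rhytidome-like bark against rhytidome, and shares of 15.6% in holm oak and 14.4% in the F1 trees. Centring on the median gave 44 for the parent minus hybrid difference. With limits of 200 and 1000 in place of 100 and 500, 50 members stayed within the limit in all barks and 7 left it. Chosen by the linear mean, 32 loci were beyond 500. Without the highest locus the shares were 13.4%, 14.0% and 11.5% in cork, cork-like bark and rhytidome. Leaving out each library in turn gave 33 to 38 calls (cork against rhytidome), 13 to 19 (cork against cork-like), 58 to 62 (cork against rhytidome-like), 27 to 30 (cork-like against rhytidome), 36 to 46 (rhytidome-like against rhytidome), 48 to 56 (cork-like against rhytidome-like), 39 to 44 (bark types) and 22 to 33 (parent minus hybrid difference). It gave 18 to 20 members within 100 in all barks, 14 to 17 beyond 500, and shares of 13.7% to 13.8%, 15.0% to 15.4%, 12.4% to 12.9% and 17.6% to 19.3% in cork, cork-like bark, rhytidome and rhytidome-like bark. The cause of these changes was not tested. The alternative that ranks loci per length was not run, since lengths were not used here. No paired analysis was possible because the barks share no tree or sample numbers.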

Other observations

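A choice by the mean over all barks leaves out loci that are very abundant in some barks only, and 111 of the 209 loci among the first 100 of some bark were no members. They were chosen for naming after their values were seen. *CYP86B1* and *GPAT5* are enzymes that make suberin monomers. They ranked 12 and 23 in cork, 73 and 31 in cork-like bark, 339 and 646 in rhytidome, and 4801 and 5176 in rhytidome-like bark. The glycine-rich protein DC7.1-like ranked 42 in cork oak and 10 on the cork-like tree, but 11478 in holm oak and 3077 in the F1 trees. *Laccase 14*, of a family that oxidizes lignin precursors, ranked 78 in rhytidome and 113 in rhytidome-like bark, and 9544 and 11818 in cork and cork-like bark. A UDP-glycosyltransferase locus, LOC112005619, ranked 15 in rhytidome and 6 in rhytidome-like bark, 669 in cork-like bark and 4543 in cork.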
